A study of Mus musculus with 4 samples.

Results

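The interferon response genes followed here are 9 genes that mammalian cells switch on after interferon or viral nucleic acid has been sensed: Ddx58, Irf7, Isg15, Usp18, Ifit1, Ifit2, Ifit3, Oasl2 and Rsad2. They were chosen by name, as the spots whose annotated gene name is one of these 9, and they account for 11 of the 55681 probes and 9 of the 36161 gene names on the array. These genes, and the gene lists used further on, were chosen with earlier results of these data known. The data hold 1 array for each of 4 groups of whole liver from C57BL/6J mice labelled Embryonic Day 20, namely microsomic females (MF), control females (CF), microsomic males (MM) and control males (CM). Microsomic (M) mice are naturally small at birth within an inbred colony kept under standard conditions, and the control (C) mice had a normal weight. All groups share strain, tissue and stage, and the labels name no engineered allele and no treatment. The methods of the study speak of newborn animals, another substrain and replicate experiments, which the labels of these arrays do not show. Whether an array holds the RNA of 1 animal or of a pooled litter is not given in the sources used here.

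Type I and type III interferons are secreted by cells that detect foreign or misplaced nucleic acid, and they bind receptors that signal through Janus kinases to transcription factors in the nucleus. These bind the interferon-stimulated response element, a repeat of the bases GAAA, in the promoters of a large set of genes whose products degrade viral RNA, block translation or feed back on the pathway. In liver, hepatocytes, Kupffer cells (the resident macrophages) and the blood-forming cells of the fetal organ can all carry out this response. Liver RNA is a mixture of these cells, and in such bulk samples a smaller number of cells of a type cannot be told apart from less RNA per cell.

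Promoter sequences are shown because several of these genes share the response element, which the choice of genes by name did not use. RefSeq promoter windows on GRCm38.p6, each from 250 bases before to 50 bases after an annotated start, were found for 8 of the 9 genes. Both strands were searched for the letters GAAA, any 2 bases and GAAA again, which read TTTC, any 2 bases and TTTC on the other strand, and overlapping matches were counted separately. The element was present in 5 of these 8 genes, against 1131 of 32851 windows of the same length in the whole table, or 3.44%. The stretches below run 5′ to 3′ on the strand of the gene, with matches in capitals and 15 bases on either side. They are Ifit1 at chr19:34640770-34640828 on the plus strand, Ifit3 at chr19:34583358-34583431 on the plus strand, Isg15 at chr4:156200860-156200911 on the minus strand and Rsad2 at chr12:26456548-26456587 on the minus strand.
Ifit1: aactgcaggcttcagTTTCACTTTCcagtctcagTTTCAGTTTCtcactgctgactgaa
Ifit3: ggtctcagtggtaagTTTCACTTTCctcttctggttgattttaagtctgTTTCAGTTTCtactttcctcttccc
Isg15: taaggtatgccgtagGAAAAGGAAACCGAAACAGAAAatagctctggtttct
Rsad2: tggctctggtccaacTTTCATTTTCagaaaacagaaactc

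Isg15 carried 3 overlapping matches that begin 78, 72 and 66 bases before its start. Ifit1 had 2 matches, at 104 and 85 bases before the start, and Ifit3 had 2, at 156 and 122 bases. The single match of Rsad2 began 120 bases before the start, and that of Ddx58 lay just after it. These letters were not in the windows of Ifit2, Irf7 and Oasl2. A match is a description of the window and not a measured binding site.

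Each value below is the processed signal of a probe, an intensity on a linear scale as the Agilent software gives it, or its log2 after the 75th percentile of the array was subtracted. That percentile was 893 on MF, 676 on CF, 925 on MM and 628 on CM, and the share of non-control spots with a signal well above background ran from 56.1% to 65.3%. All 44 spots of the interferon response genes, 11 probes on 4 arrays, were well above background and none was saturated. Since each group has a single array, the values of a pair of groups carry neither a replicate spread nor a p-value. Spot noise alone was measured within each array, at the probes printed at 10 spots with a mean signal above the 75th percentile. The median SDs of such spots on the 2 arrays of a pair were combined. This gave an SD of 0.32 (log2) for a difference in MF vs CF and 0.28 in MM vs CM. A gene was counted as higher or lower when it differed by more than 1.5-fold, which is 0.58 on the log2 scale. All arrays lay on 1 slide, the M arrays in column 3 and the C arrays in column 1, so slide column and group cannot be told apart. The female arrays lay in row 1 and the male arrays in row 2, so slide row and sex cannot be told apart either. The signals of Xist and of the Y chromosome genes Ddx3y, Eif2s3y and Uty matched the labelled sex on all 4 arrays, while Kdm5d, also on the Y chromosome, was not well above background on any. The MF array stood apart in spot quality, with 916 spots flagged as non-uniform and 22 saturated, where the other arrays had 130 to 182 and 0 or 1. The 8 hepatocyte markers were well above background on every array.

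Ddx58 encodes RIG-I, a helicase that senses viral RNA in the cytoplasm. It has 2 probes on chromosome 4 of mm9, at 40151893-40151952 and 40151133-40151192 on the minus strand, and their first 30 bases are shown because they gave different levels.
Ddx58, brighter probe: gttgaaattaaaatctttcaccatgcctgg
Ddx58, dimmer probe: agttcttgatagtggttactggtaaaattc
The processed signal of the brighter probe was 4840 on MF, 1747 on CF, 3282 on MM and 2027 on CM. After scaling, MF exceeded CF by 2.10-fold (log2 1.07) and MM was above CM by 0.14. The dimmer probe read 1323 on MF, 364 on CF, 281 on MM and 125 on CM. Both probes had their highest value on MF, and both were higher in the M array than in the C array of each sex. The dimmer probe passed 1.5-fold in both sexes, with log2 differences of 1.46 in females and 0.61 in males. Between control arrays the probes gave opposite signs, since CM minus CF was 0.32 for the brighter probe and -1.44 for the dimmer one.

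Irf7 encodes the transcription factor that amplifies the production of type I interferon. Its probe is annotated at chr7:148450664-148451014 on the minus strand of mm9, a span of 351 bases for a probe of 60 bases. The signal was 3342 on MF, 1927 on CF, 762 on MM and 996 on CM. Both females were above both males. MF exceeded CF by 0.39 (log2), or 1.31-fold, which is within the threshold. MM was below CM by 1.93-fold, a log2 difference of -0.95, which was -0.39 without scaling and -0.14 with normexp background correction, both within the threshold.

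Isg15 encodes a ubiquitin-like protein that is attached to other proteins during the response. Both of its probes lie on the minus strand of mm9 chromosome 4, the brighter at 155573649-155573708 and the dimmer at 155573533-155573552, and their first 30 bases are given since this gene was past 1.5-fold in opposite directions in the sexes.
Isg15, brighter probe: ggaccagtgtgcctaaggcccccatccaga
Isg15, dimmer probe: tgtagacacgcttaagaagaaggtgtccag
The brighter probe had a signal of 108684 on MF, 26432 on CF, 10301 on MM and 19963 on CM. The dimmer probe had 10287 on MF, 2739 on CF, 2056 on MM and 3674 on CM. On both, MF was highest and MM lowest. On the brighter probe MF exceeded CF by 3.11-fold (log2 1.64) and MM was 2.86-fold below CM (log2 -1.51). The dimmer probe gave 1.51 and -1.40 for the same differences. The difference of Isg15 was above that of 95.7% of all genes compared in females and above that of 8.11% in males. The probes differed in sign between control arrays, with CM minus CF at -0.30 for the brighter and 0.53 for the dimmer.

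Usp18 encodes the protease that removes Isg15 from its targets, and the same protein also restrains signalling at the type I receptor. Its probe, at chr6:121220874-121220933 on the plus strand of mm9, had a signal of 4427 on MF, 1795 on CF, 2670 on MM and 1699 on CM. Only the MF array stood apart, since the scaled log2 values of the other 3 arrays lay between 1.41 and 1.53. MF was 1.87-fold above CF (log2 0.90), whereas MM differed from CM by 0.09.

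**Figure D1:**
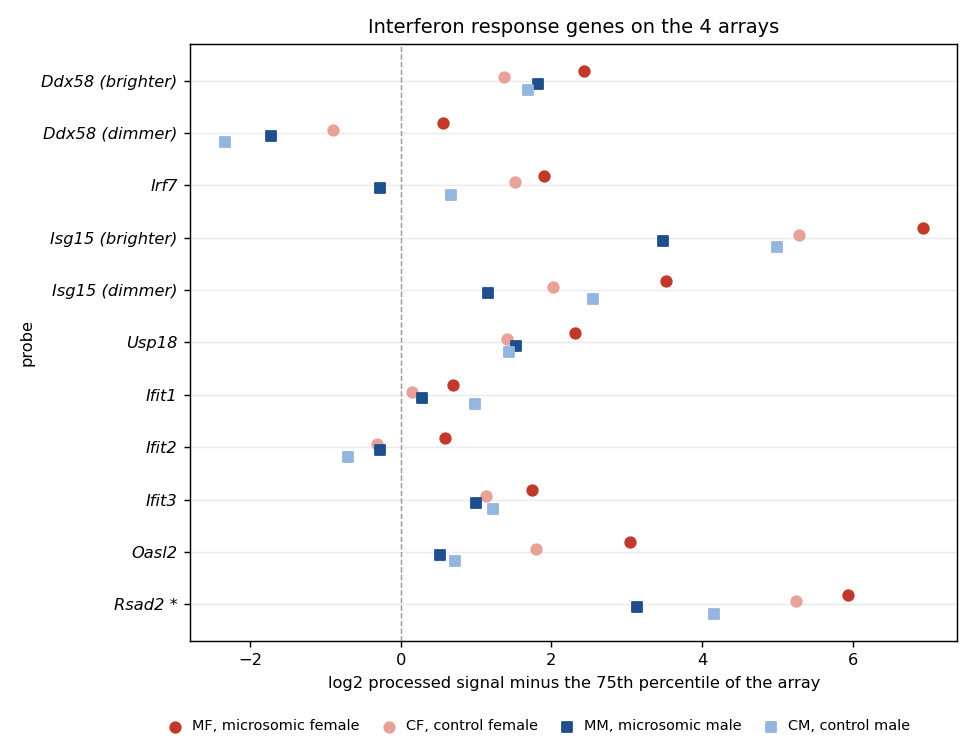
Scaled log2 processed signal of the 11 probes of the interferon response genes on each of the 4 arrays (x axis, log2 relative to the 75th percentile of the array), with circles for females, squares for males and dark symbols for the microsomic arrays. The asterisk marks Rsad2, whose spot on MM had an outlier flag. MF is the highest array for every probe except that of Ifit1, where CM is highest at 0.99.

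The Ifit genes encode tetratricopeptide-repeat proteins that bind foreign RNA and hinder its translation, and the 3 of them lie close together on chromosome 19. Ifit1, measured at chr19:34723796-34723855, had a signal of 1439 on MF, 749 on CF, 1128 on MM and 1244 on CM. Ifit2, measured at chr19:34650244-34650303, had 1337 on MF, 543 on CF, 763 on MM and 386 on CM. Ifit3, measured at chr19:34663105-34663164, had 2978 on MF, 1488 on CF, 1849 on MM and 1467 on CM. All 3 were higher in MF than in CF, while in males they went different ways. In MF vs CF the log2 differences were 0.54 for Ifit1, 0.90 for Ifit2 and 0.60 for Ifit3. Ifit3 at 1.52-fold lay just past the threshold and Ifit1 at 1.46-fold just short of it. In MM vs CM they were -0.70, 0.43 and -0.23, of which the 1.63-fold lower value of Ifit1 passed the threshold.

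Oasl2 encodes an oligoadenylate synthetase-like protein with antiviral activity. Its probe, at chr5:115362168-115362227 on the plus strand of mm9, had a signal of 7381 on MF, 2349 on CF, 1332 on MM and 1031 on CM. Both females were above both males after scaling, with log2 values of 3.05 on MF, 1.80 on CF, 0.53 on MM and 0.72 on CM. MF exceeded CF by 2.38-fold (log2 1.25), and MM minus CM was -0.19.

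Rsad2 encodes viperin, a radical SAM enzyme that makes an inhibitor of viral RNA synthesis. The signal of its probe, at chr12:27127859-27127918 on the minus strand of mm9, was 54772 on MF, 25763 on CF, 8111 on MM and 11230 on CM. The order of the scaled values was MF, CF, CM and MM, the same as for both Irf7 and the brighter probe of Isg15. MF was 1.61-fold higher than CF (log2 0.69) and MM was 2.04-fold lower than CM (log2 -1.03). Its spot on MM carried an outlier flag, and the gene was for that reason left out of the counts below, which cover the other 8.

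In females, then, the interferon response genes were higher on the microsomic array, MF, than on the control array. In MF vs CF, 6 of the 8 genes (Isg15, Oasl2, Ddx58, Usp18, Ifit2 and Ifit3) were more than 1.5-fold higher and 0 were lower, where 19.9% of the 25538 genes compared were higher and 21.1% lower. The median log2 difference over the 8 genes was 0.90, against -0.04 over all genes compared. Irf7 and Ifit1 were above CF by less than 1.5-fold. With Rsad2 the count was 7 of 9. Among the 10351 genes above the 75th percentile, 20.9% were higher and the median difference was -0.02. The genes and the lists below were chosen with earlier results of these data known. Their counts beside the shares of all genes are therefore a description and not independent evidence.

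In males the same genes did not move together. In MM vs CM, 0 of 8 were more than 1.5-fold higher and 3 (Isg15, Irf7 and Ifit1) were lower, where 17.7% of the 26315 genes compared were higher and 23.1% lower. The median was -0.21, against 0.00 over all genes. Ddx58, Usp18 and Ifit2 were above CM by less than 1.5-fold, and Ifit3 and Oasl2 below it. With Rsad2 the lower count was 4 of 9. The signs in males depended on the scaling. With each array centred on its median, 5 of the 8 genes were above CM in place of 3, and with the signals left unscaled 3 were more than 1.5-fold higher and 1 lower. In females all 8 were above CF under each of the 7 ways of processing that gave these genes values of their own. Median centring and no scaling raised every female difference by the same amount, and averaging probes changed only Isg15 and Ddx58. Those alternatives could not turn a sign in females, and all ways of processing use the same arrays.

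**Figure D2:**
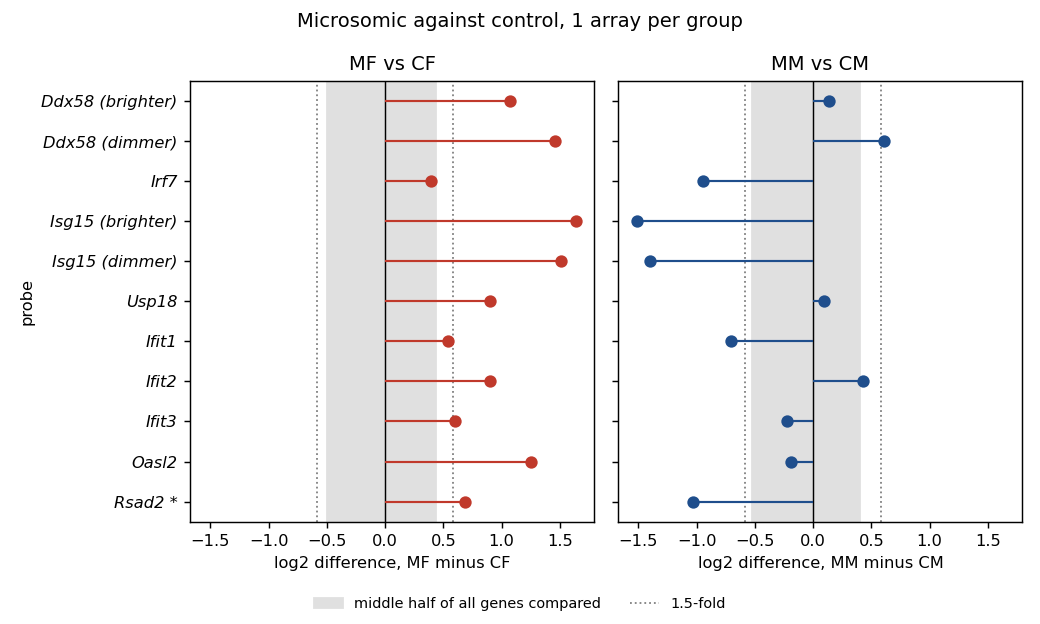
Log2 difference of each probe between microsomic and control liver, in females (left) and males (right), with the range between the lower and upper quartile of all genes compared in grey and the 1.5-fold threshold dotted. All 11 probes are above 0 in females, from 0.39 for Irf7 to 1.64 for Isg15, while in males they run from -1.51 to 0.61.

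**Figure D3:**
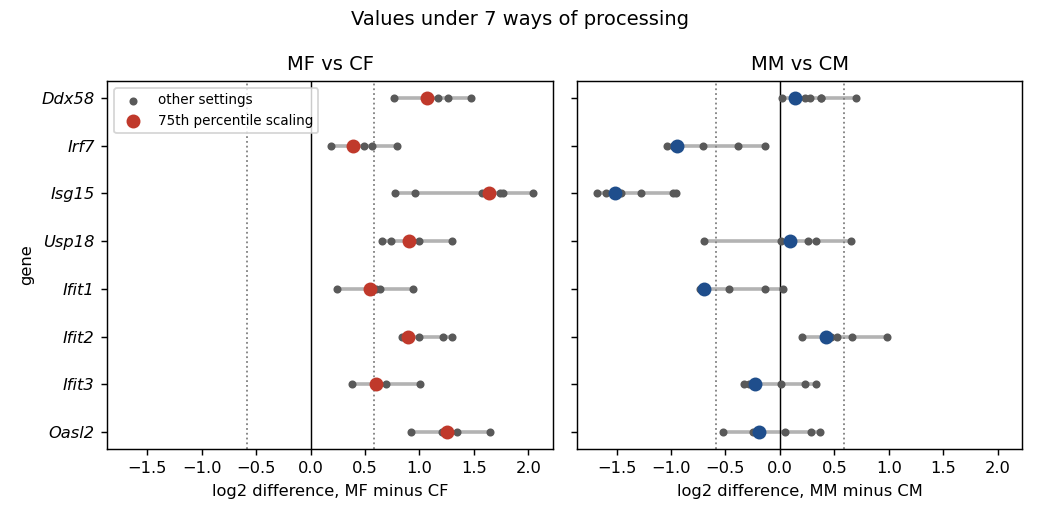
Log2 difference of 8 interferon response genes between microsomic and control liver under 7 ways of processing (75th percentile scaling in colour, the others as small dots), in females (left) and males (right). Every value in females is above 0, whereas in males 4 of the 8 genes (Ifit1, Ifit3, Oasl2 and Usp18) have values on both sides of 0. All ways of processing use the same arrays, and several could not turn a sign in females.

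The difference between the sexes cannot be tested with 1 array per group. As a description, the M minus C difference was larger in females than in males for 8 of the 8 genes, while this was so for 47.5% of the 23967 genes compared in both sexes. Isg15 passed 1.5-fold in opposite directions, higher in MF and lower in MM, as did 5.81% of these 23967 genes. Rsad2 did likewise. The gap between the female and the male difference was 3.15 (log2) for the brighter Isg15 probe and 2.90 for the dimmer, and it was smallest for Ifit2 at 0.47.

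The MF array also entered the comparison of the sexes among microsomic livers. All 8 genes were lower in MM than in MF, 7 of them by more than 1.5-fold, where 20.5% of the 26735 genes compared were lower, and the median was -0.82. Isg15 was 10.9-fold lower in MM, Oasl2 5.74-fold and Irf7 4.55-fold by their brightest probes. Between the controls there was no common direction. In CM vs CF, 1 gene (Ifit1, log2 0.84) was higher and 2 (Oasl2 at -1.08 and Irf7 at -0.85) were lower, where 26.6% of 25204 genes were higher and 19.7% lower.

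A limma model of all 4 arrays, with terms for group (M or C) and for sex, asks for a change shared by females and males and has 1 residual degree of freedom. No interferon response gene passed (0 of 8 with a Benjamini-Hochberg adjusted p under 0.05, and 0 of 8 with an unadjusted p under 0.05). The largest common differences were those of Ifit2, 0.66 ± 0.42 (SE, limma), and Ddx58, 0.60 ± 0.45. Isg15, with opposite signs in the sexes, gave 0.06 ± 0.71. Among all 19303 genes tested, 0 passed after adjustment and 853 (4.42%) had an unadjusted p under 0.05 in limma.

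The other genes of the pathway were taken from a list of 96 names. Of these, 95 were measured and 3 (Ifnb1, Ifne and Oas1g) were below background on all 4 arrays. In MF vs CF, 24 of the 91 genes compared were higher and 9 lower, with a median of 0.24. In MM vs CM, 13 of 90 were higher and 17 lower, with a median of -0.07. The shares in MF vs CF, 26.4% higher and 9.89% lower, stand beside 19.9% and 21.1% over all genes, and those in MM vs CM, 14.4% and 18.9%, beside 17.7% and 23.1%.

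Of the 12 ligands measured, the interferons themselves, 8 were well above background on MF, 7 on CF, 9 on MM and 6 on CM, and Ifnb1, which encodes interferon beta, was not above it on any. In MF vs CF, 0 of 9 compared were higher and 3 lower (33.3%), and in MM vs CM 3 were higher (33.3%) and 2 lower (22.2%). Beside these counts by role, and those of the next paragraph, stand the shares over all genes. They were 19.9% higher and 21.1% lower in MF vs CF, and 17.7% and 23.1% in MM vs CM. Il28b, a type III interferon named after its values were seen, was well above background on all arrays, and MM exceeded CM by 4.07-fold, while MF minus CF was -0.54 (log2). Ifna5, a type I interferon also named after its values were seen, was lower in MF, at -1.33. In males it was higher in MM by at least 1.17, since CM was below background. The probe of Ifna5 was dim, with scaled log2 values of -3.73 on MF, -2.40 on CF, -2.95 on MM and -4.12 on CM. The lowest signals well above background on the arrays ran from -6.03 (MF) to -4.69 (CM). Among the 12 receptors and signal transducers, 3 were higher and 2 lower in MF vs CF, and 3 of 11 higher and 2 lower in MM vs CM. Tyk2, the Janus kinase bound to the type I receptor, was higher in both sexes with log2 differences of 0.93 and 0.67. Il28ra, a chain of the type III receptor, was also higher in both, by 0.69 and 0.72.

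Of 15 sensors and adaptors, 3 were higher and 3 lower in MF vs CF (20.0% each, near the 19.9% and 21.1% of all genes), and 2 were higher and 3 lower in MM vs CM. Dhx58, a helicase related to Ddx58, was higher in MF than in CF by 1.26 and lower in MM than in CM, at -0.92. Tlr7 and Tlr9, the endosomal receptors for RNA and DNA, had the same pattern. Tlr7 differed by 0.96 in females and -1.23 in males, and Tlr9 by 2.78 and -0.90. These 3 genes, named after their values were seen, were the sensors past 1.5-fold in opposite directions in the sexes, as Isg15 was. Of the 7 inhibitors, 2 were higher and 0 lower in MF vs CF, and 1 was higher and 2 lower in MM vs CM. Tnfaip3, which restrains inflammatory signalling and was also named after its values were seen, was higher in MF by 1.29 and lower in MM, at -0.90.

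The other induced effectors lay closest in function to the 9 genes. Of the 48 compared, 16 were higher and 1 lower in MF vs CF, with a median of 0.38, and 4 were higher and 8 lower in MM vs CM, with a median of -0.16. These are 33.3% higher in MF, beside 19.9% of all genes, and 16.7% lower in MM, beside 23.1%. The M minus C difference was larger in females for 40 of the 48, beside 47.5% of all genes. Of the 16 that were higher in MF, 15 were within 1.5-fold in males, 1 was higher in both and 0 were lower in MM. In MM vs MF, 33 of 48 (68.8%) were lower, beside 20.5% of all genes.

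Of all genes compared in both sexes, 3.19% were higher in both and 3.8% lower in both. The effector higher in both was Iigp1, an immunity-related GTPase, at 2.01 in females and 1.03 in males. Uba7, the enzyme that activates Isg15 for conjugation, was lower in both, at -0.86 and -0.75. Several effectors with large differences in females were named after their values were seen. Cxcl10, a chemokine that attracts T cells, had scaled log2 values of 2.37 on MF, -0.59 on CF, 0.60 on MM and 0.28 on CM. Oasl1, a relative of Oasl2, had 2.31 on MF, 0.39 on CF, 0.13 on MM and 0.39 on CM. MF stood above the other 3 arrays in both. Xaf1, an apoptosis-related gene of the response, had log2 differences of 0.86 in females and -0.39 in males.

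**Figure D4:**
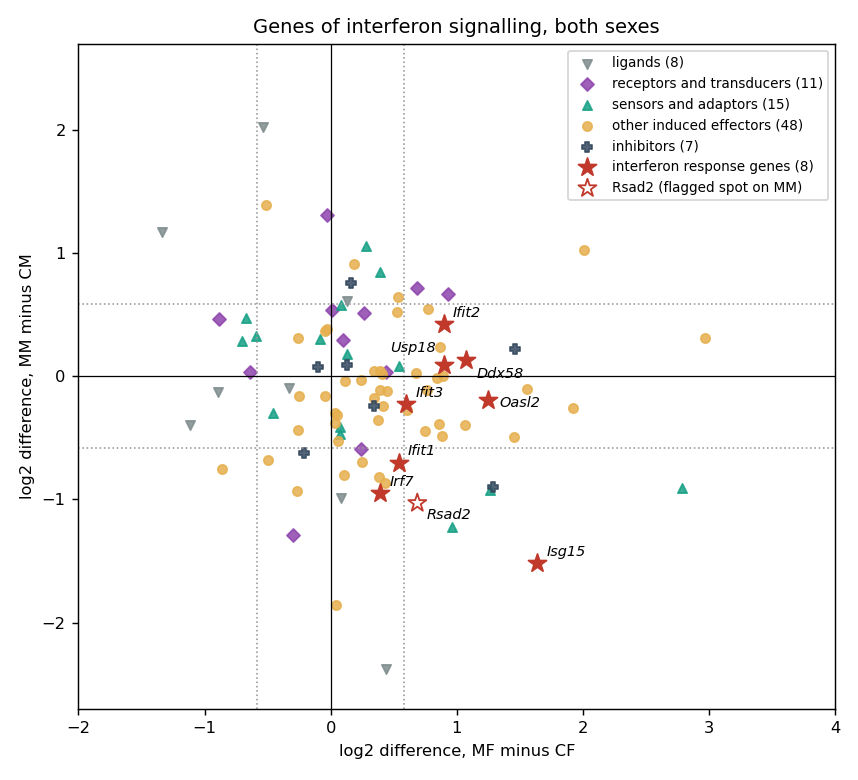
Log2 difference between microsomic and control liver in females (x axis) and males (y axis) for the genes of interferon signalling, by role, with the 1.5-fold threshold dotted. The interferon response genes (stars) all lie to the right of 0, as do 38 of the 48 other effectors, while 32 of these 48 lie below 0 in males.

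Of the pathway genes, 4 (Ifitm3, Igtp, Tap1 and Myd88) were printed at 10 spots each, which shows the spot noise directly. Ifitm3, a membrane protein that blocks viral entry, had 6.72 ± 0.28 on MF, 5.27 ± 0.35 on CF, 4.23 ± 0.18 on MM and 4.72 ± 0.16 on CM (log2, SD over 9 spots without a flag). The lowest spot on MF, 6.44, was above the highest on CF, 5.57, and the difference of 1.45 was larger than the spread of the spots. The difference in males was -0.50. Igtp, another immunity-related GTPase, had 3.78 ± 0.31 on MF and 3.01 ± 0.30 on CF (8 spots), where the lowest MF spot, 3.29, lay below the highest CF spot, 3.40. MF minus CF was 0.41 for Tap1 and -0.08 for Myd88, both within 1.5-fold. Such spots share 1 RNA sample and do not stand for animals.

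Markers of other cells also differed between the arrays, and their part in the values above was not tested. Beside the marker counts here and below stand the shares over all genes. They were 19.9% higher and 21.1% lower in MF vs CF, and 17.7% and 23.1% in MM vs CM. Of 9 macrophage and Kupffer cell markers, 7 were higher and 1 lower in MF vs CF, and 2 higher and 0 lower in MM vs CM, and their summed scaled signal was 226 on MF, 103 on CF, 123 on MM and 98.4 on CM. Of 9 granulocyte markers, 7 were higher and 0 lower in MF vs CF. In MM vs CM 0 were higher and 2 lower (22.2%, near the share of all genes). Their summed signal was 1945 on MF, 956 on CF, 987 on MM and 1286 on CM. For plasmacytoid dendritic cells, which produce much type I interferon, 2 of the 5 markers were well above background on all arrays. The summed signal of the 5 was 459 on MF, 61.4 on CF, 89.3 on MM and 89.1 on CM. Siglech was above control by 1.13 (log2) in females and 0.63 in males. Pacsin1 alone, named after its values were seen, gave 363 of the sum on MF, and its probe holds 11 stretches of 5 bases that are all C or T, at least 3 of them C, where 8.64% of all probes hold 4 or more such stretches. Without Pacsin1 the ratio of MF over CF was 2.18 in place of 7.48, and that of MM over CM was 1.55. These ratios restate the Siglech differences. The other markers left, Ccr9, Klk1 and Runx2, had scaled log2 values of -2.89 or lower on every array and added almost nothing to the sum. Csf1r, the brightest macrophage marker, had scaled log2 values of 6.96 on MF and 5.07 on CF, and its probe holds 6 such stretches. The macrophage sum was not taken without it. The 8 other macrophage markers, with fewer than 4 such stretches, gave 6 higher and 1 lower in MF vs CF.

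Hepatocyte markers gave a summed ratio of 1.12 for MF over CF and 0.65 for MM over CM, with 5 of 8 lower in MM. The ratios were 1.23 and 0.70 for T and NK cell markers (0.94 and 0.72 without Prf1, chosen after its values were seen), 1.23 and 0.81 for B cell markers, 0.82 and 0.96 for endothelium, and 0.73 and 0.62 for erythroid cells. Genes listed as markers of neighbouring organs differed too. Intestinal epithelium markers had a ratio of 5.97 in females, where 7 of 7 were higher, and of 5.99 in males, where 2 of the 5 compared (Apoa4 and Fabp2) were higher and 2 lower. These like ratios came from unlike genes. In males Apoa4 differed by 3.59 (log2) and Fabp2 by 2.38, but Lgals4 by -0.83 and Vil1 by -1.24. The male ratio thus rests mainly on Apoa4 and Fabp2, which were well above background on all 4 arrays, and not on the list as a whole. Cdh17 and Cdx2 were well above background on MF only. The ratios were, for exocrine pancreas markers, 3.47 and 0.72, and for heart muscle markers, 0.02 and 0.51, where CF had a summed signal of 115 and the other arrays 2.42 to 5.31. Of the 6 pancreas markers, 3 were well above background on all arrays. Ctrb1, the brightest of them, was higher in MF by 2.82 (log2), and its probe holds 11 of the C and T stretches described above. The other 4 compared gave 3 higher and 0 lower in MF vs CF. Whether what lies behind the signals of the intestine, pancreas and heart markers moved the interferon response genes was not tested.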

How the data were processed

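Whole-liver RNA, labelled with Cy3, was read on 1-colour Agilent arrays of 60-base probes. The authors deposited the Agilent Feature Extraction output (version 10.7.3.1 per the file headers), and the values used are its processed signal, a background-subtracted and detrended intensity without normalization between arrays. The deposited value table equalled it in 62976 of 62976 spots.

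The log2 signal minus the 75th percentile of each array was used. Any spot that the software flagged as an outlier on at least 1 array (1754 of 59305) was dropped from all 4, replicate spots were averaged, and the brightest probe stood for a gene. A gene well above background on 1 array of a pair was compared against the lowest signal well above background on the other, or its own signal if higher. limma 3.58.1 (R 4.3.3) was fitted with M or C and sex, with Benjamini-Hochberg adjustment over 19303 genes. The fit was also run on simulated data with the same SD for every gene. Such a run cannot show how the fit behaves where the spread differs between genes. Named were all members with all probes, pathway genes past 1.5-fold the same way in both sexes, the brightest gene of some marker lists and the 5 genes of most similar profile. Some others were named after their values were seen. The members and lists were chosen with earlier results of these data known. Alternatives changed the scaling, background correction, dim-probe filter, choice of probe, outlier flags, array position, fold threshold and model. With 1 array per group, the number of arrays limits the precision.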

Additional observations from a re-analysis of the deposited data

Results flagged for a closer look

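Isg15 and Rsad2 passed 1.5-fold in opposite directions in the sexes, and this difference was not tested. Isg15 was higher in MF than in CF by 1.64 (log2) and differed by -1.51 between MM and CM, and its dimmer probe gave 1.51 and -1.40. Rsad2 was higher in MF by 0.69 and differed by -1.03 in males, where its spot on MM carried an outlier flag. For Isg15 the range over 7 ways of processing was 0.78 to 2.04 in females and -1.68 to -0.95 in males, so the signs held under all of them.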

How the results depend on the processing

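All 8 interferon response genes without an outlier flag were above CF in MF under each of the 6 alternatives that changed their values (scaling, background correction, probe choice and array position), and their median log2 difference ranged from 0.71 (normexp with quantile normalization) to 1.30 (no scaling). Of these alternatives, only quantile normalization, normexp and the correction for array position could have turned a sign in females. Median centring and no scaling raised all 8 by the same amount, and averaging probes changed only Isg15 and Ddx58. At a 2-fold threshold 3 of the 8 genes were higher in MF. In MM vs CM the median was 0.35 without scaling (3 genes higher, 1 lower), 0.03 with median centring (1 higher) and 0.12 with normexp, and 1 gene was lower at 2-fold. Ifit1 in MM vs CM turned from -0.70 to 0.032 with normexp, and Usp18 went from 0.09 to -0.69. Irf7 in MM vs CM was no longer past 1.5-fold with normexp (-0.14) or without scaling (-0.39). In MF vs CF, Isg15 was 0.96 with quantile normalization and 0.78 with normexp. The filter on dim probes and the flagged spots could not change these 8 genes. The cause was not tested. Without scaling, the median of all genes itself moved by 0.38 in MF vs CF and 0.50 in MM vs CM, and with median centring by 0.18 in MM vs CM. Against these shifts stand the medians of the pathway list without scaling, 0.64 in MF vs CF (46 higher, 2 lower) and 0.49 in MM vs CM (40 higher, 4 lower). Other pathway counts that moved were 22 higher and 10 lower in MM vs CM with median centring, 26 lower there with normexp, 10 higher and 2 lower in MF vs CF at 2-fold, and 6 higher and 4 lower in MM vs CM at 2-fold. Leaving out pathway genes whose probes are rich in C and T, chosen after seeing the data, left 24 higher and 9 lower in MF vs CF and 13 and 14 in MM vs CM.

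Among all genes called, the share that was higher was 48.5% in MF vs CF and 43.4% in MM vs CM, 57.1% and 61.0% with median centring, 79.6% and 78.4% without scaling, and 42.4% and 32.4% without the filter on dim probes. Without scaling, limma called 10 genes at an adjusted p under 0.05. The threshold in the methods of the study is a p under 0.01 and more than 1.5-fold. With the unadjusted p of limma, 163 of 19303 genes passed it after 75th percentile scaling. That count is not adjusted for the number of genes and is not comparable with the 10. There were 0 interferon response genes in either, and without scaling 2 of the interferon response genes had an unadjusted p under 0.05 in limma. No paired analysis was possible because each group has 1 array. For the same reason no replicate could be left out. Each gene but 2 rests on a single probe, and spot noise of 0.32 (log2) in MF vs CF is more than the distance of Ifit1, Ifit2, Ifit3, Irf7 and Usp18 from the 1.5-fold threshold.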

Other observations

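Among the 19303 genes that every array measured above background, the profile nearest to the mean profile of the 8 interferon response genes, by Euclidean distance between log2 signals centred on their own mean over the 4 arrays, was that of an unnamed probe at 0.02. A long non-coding RNA probe (0.04), Rrp1 (0.06), Xaf1 (0.06) and Gpc3 (0.06) followed, and Xaf1 is on the pathway list. The 8 genes themselves lay farther from their own mean, at 0.54 for Ifit3 to 1.44 for Isg15, and 873 to 11103 genes were nearer. With 4 points per profile, many genes lie close to any profile.

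The response element was also counted in the other induced effectors, of which 16 of 39 with a promoter window (41.0%) held it. Among all genes on the array other than the 9, the 444 with the element and a comparison in MF vs CF had a median log2 difference of -0.04 and 22.5% were higher, beside -0.05 and 18.7% for the 11179 with a window and no element. In MM vs CM 14.4% of 443 with the element were higher, beside 17.6% without it.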
